A study of Mus musculus with 9 samples.

Results

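The interleukin-6 family of cytokines, its receptors and the STAT3 branch of signalling were followed in cultured mouse podocytes, the epithelial cells that wrap the capillaries of the kidney glomerulus. The set held 10 genes of the 22180 that the arrays measured: the ligand genes Il6, Il11, Lif and Clcf1, the receptor genes Il6ra, Il6st, Lifr and Osmr, the transcription factor gene Stat3 and the feedback inhibitor gene Socs3. The set was chosen by the measured levels of Il6, which stood high only on the arrays with added forskolin, and the other 9 genes were taken as its known relatives and signalling partners. Il6 is therefore described here without a test, and the tests cover the 9 others. A gene with several probe sets was read from the brightest of them on average.

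RNA was measured on 9 arrays, 3 per group. A first group was exposed to 10 µM forskolin on top of 2.5 µM thapsigargin, a second to 2.5 µM thapsigargin without forskolin, both for 16 hours, and the control group received DMSO, the vehicle. All had been differentiated for 11 days at 37 °C beforehand. Thapsigargin inhibits the pump that loads calcium into the endoplasmic reticulum, and forskolin switches on adenylyl cyclase and so raises cAMP. No group received forskolin without thapsigargin, so each forskolin value is that of forskolin added to thapsigargin. Biological replicates is the word of the labels, with no word on whether these were separate cultures or days, so p-values rest on array-to-array spread that may be technical. The cell line is not named.

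Values are the log2 values that the authors deposited, 1 per gene and array, and levels of different genes are not comparable because probe sets bind with different strength. The lower quartile of an array lay between 4.53 and 4.59 and the median between 5.80 and 5.88, and these give a sense of where a low signal lies, since background was not checked. The podocyte label was set against markers. Synpo, which encodes synaptopodin, averaged 7.23 under thapsigargin plus forskolin, 6.67 under thapsigargin and 9.20 under DMSO, while Nphs1 (nephrin) averaged 6.42, 6.38 and 6.55 and Wt1 averaged 6.54, 6.45 and 6.80 in the same groups, above the array medians in all 3. The mean log2 level of the 9 measured podocyte markers was 8.05 on the combined arrays, 8.29 to 8.31 on the thapsigargin arrays and 8.97 to 9.01 on the DMSO arrays. It moved with the groups, and its part in the results that follow was not tested. The defining leukocyte markers were low: Ptprc averaged 3.80, 3.72 and 3.78 in the same order, under the lower quartiles, Adgre1 averaged 4.61, 4.65 and 4.94, and Itgam averaged at most 5.16 in any group, both under the medians.

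Cytokines of this family share the signalling receptor gp130, the product of Il6st. A ligand first meets its own receptor, such as the IL-6 receptor encoded by Il6ra, or pairs gp130 with the LIF receptor or the oncostatin M receptor. JAK kinases bound to the receptors then phosphorylate STAT3, which enters the nucleus and raises, among others, Socs3, whose protein blocks the JAKs at gp130. The arrays measured transcripts and not the phosphorylation of STAT3. In bulk RNA, fewer cells of a type and less RNA per cell cannot be told apart.

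Sequences before the annotated starts of the genes are given first, because Il6 is a textbook cAMP-responsive gene and Socs3 a textbook STAT3 target. RefSeq windows of build GRCm38.p6, from 250 bases before to 50 bases after each annotated start, were found for 9 of the 10 genes, in 11 windows. They were searched on both strands for the full cAMP response element TGACGTCA, its core TGACG, which the full element contains, the STAT palindrome TTCNNNGAA and the CHOP-ATF4 composite element TGATGNAA. The window of Il6, chr5:30012864-30013163 on the plus strand, held a core element on the opposite strand, 135 bases before the start, and no full element. The window of Socs3, chr11:117969317-117969616 on the minus strand, held a STAT palindrome 154 bases before the start. The window of Il6ra held a core element 236 bases before the start, and none of the 4 motifs was found in the remaining windows. Of all 32851 windows of the table, 20.8% held the core element, 1.79% the full element, 8.3% the palindrome and 3.97% the composite element. A match describes the letters and not a bound site. In both sequences, written 5′ to 3′ along the gene's strand, capitals mark the match.
Il6: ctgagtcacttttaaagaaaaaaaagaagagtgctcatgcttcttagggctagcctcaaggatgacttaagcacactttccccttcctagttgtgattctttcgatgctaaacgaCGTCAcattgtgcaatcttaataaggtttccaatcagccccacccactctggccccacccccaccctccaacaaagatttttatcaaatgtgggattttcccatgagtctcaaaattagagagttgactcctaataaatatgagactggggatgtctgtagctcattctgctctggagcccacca
Socs3: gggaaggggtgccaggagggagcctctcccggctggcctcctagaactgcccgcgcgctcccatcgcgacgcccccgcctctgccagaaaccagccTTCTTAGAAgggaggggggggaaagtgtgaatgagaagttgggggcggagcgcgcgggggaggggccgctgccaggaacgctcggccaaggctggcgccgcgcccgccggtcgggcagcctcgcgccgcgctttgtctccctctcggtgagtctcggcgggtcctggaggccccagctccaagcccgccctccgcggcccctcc

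Among the ligands, Il6, whose window with its core element is printed above, stood apart. It read 8.56, 8.66 and 8.82 under thapsigargin plus forskolin, 4.71, 4.59 and 4.71 under thapsigargin, and 4.18, 3.83 and 4.07 under DMSO. The combined group lay above both others on every array, by a mean of 4.01 over thapsigargin and 4.65 over DMSO on the log2 scale. The thapsigargin arrays lay above the DMSO arrays by a mean of 0.64, with the DMSO arrays under and the thapsigargin arrays just above the lower quartiles, where a log2 difference can understate a change. The order was thus thapsigargin plus forskolin, thapsigargin, DMSO, and neighbours in it did not overlap. Averages were 8.68 ± 0.13, 4.67 ± 0.07 and 4.03 ± 0.18 (SD, n = 3 each) in that order.

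Il11, whose protein signals through its own receptor and gp130 and is linked to fibrosis, was the tested ligand gene with the largest rise. It read 7.81, 7.82 and 7.63 under thapsigargin plus forskolin, 5.91, 6.25 and 5.99 under thapsigargin, and 6.29, 5.88 and 5.60 under DMSO. All arrays of the combined group were above all others, and the thapsigargin and DMSO arrays overlapped. The rise was 3.27-fold over thapsigargin, with a log2 change of 1.71 ± 0.16 (limma SE, 3 arrays per group, limma adjusted p = 0.000232), and 3.57-fold over DMSO (limma adjusted p = 1.47e-05). Thapsigargin against DMSO gave 0.13, with a 95% interval from -0.24 to 0.49 (limma adjusted p = 0.607). These groups averaged 6.05 and 5.92, close to the array medians, and background was not checked.

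Clcf1, which encodes cardiotrophin-like cytokine factor 1, a ligand for the ciliary neurotrophic factor receptor with LIF receptor and gp130, was lower with thapsigargin and not with the combination. It read 11.24, 11.25 and 11.23 under thapsigargin plus forskolin, 10.79, 10.67 and 10.72 under thapsigargin, and 11.38, 11.18 and 11.26 under DMSO. The thapsigargin arrays lay below every other array, and the combined arrays fell within the DMSO range. Clcf1 fell by 0.55 ± 0.06 with thapsigargin relative to DMSO (limma adjusted p = 8.38e-05) and was 1.42-fold higher with forskolin added than with thapsigargin (limma adjusted p = 0.00122). The combined group differed from DMSO by -0.04, with a 95% interval from -0.18 to 0.11 (limma adjusted p = 0.701).

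Lif encodes leukaemia inhibitory factor, which pairs the LIF receptor with gp130. Its values were 8.73, 8.74 and 8.62 under thapsigargin plus forskolin, 8.72, 8.76 and 8.66 under thapsigargin, and 9.08, 9.05 and 8.92 under DMSO. Both thapsigargin groups lay below DMSO and overlapped with each other. Lif fell by 0.31 ± 0.06 with thapsigargin relative to DMSO (limma adjusted p = 0.00366) and by 0.32 ± 0.06 with the combination relative to DMSO (limma adjusted p = 0.00291). With forskolin added to thapsigargin the difference was -0.02, with a 95% interval from -0.16 to 0.13 (limma adjusted p = 0.944).

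**Figure D1:**
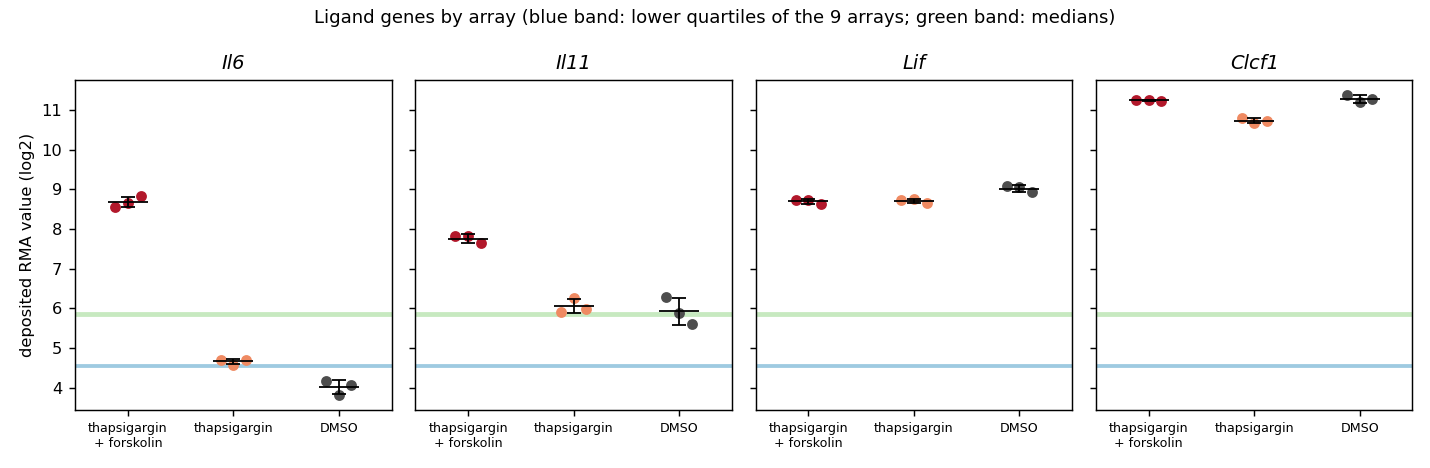
Deposited log2 values of the 4 ligand genes on each array, grouped as thapsigargin plus forskolin, thapsigargin and DMSO, with 3 points per group and bars for the mean and SD; the bands span the lower quartiles (blue) and medians (green) of the 9 arrays. Il6 averages 8.68 in the combined group, 4.67 with thapsigargin and 4.03 with DMSO, and Il11 is also highest in the combined group, while Lif is lower in both thapsigargin groups than in DMSO and Clcf1 is lower with thapsigargin alone.

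The arrays with forskolin added to thapsigargin thus read higher for Il6 and Il11. Markers of leukocytes, a common source of IL-6, were read beside these genes. Of 11 measured macrophage and leukocyte markers, 2, Cd14 and Csf1r, rose with forskolin added to thapsigargin and 0 fell, where 3.7% of all genes rose and 4.17% fell at the same threshold. Cd14, which encodes a coreceptor for lipopolysaccharide, averaged 8.94 in the combined group, 8.08 with thapsigargin and 7.97 with DMSO. Csf1r, the gene of the receptor for macrophage colony-stimulating factor, averaged 7.62, 6.80 and 7.98 in the same order. The mean log2 level of the whole list lay between 5.76 and 5.81 on the combined arrays, between 5.60 and 5.66 on the thapsigargin arrays and between 5.79 and 5.90 on the DMSO arrays, and Ptprc, Adgre1 and Itgam stayed low, as given above. Of 7 mesangial and pericyte markers, Mcam and Pdgfrb were higher with forskolin added to thapsigargin, by 2.58 and 0.38 on the log2 scale, and the smooth muscle actin gene Acta2 fell by 1.16. The mean log2 level of that list lay between 7.65 and 7.80 on the combined arrays, 7.43 and 7.49 on the thapsigargin arrays and 7.86 and 7.94 on the DMSO arrays. Of 7 endothelial markers 0 passed in that comparison. The part of such cells in the Il6 and Il11 values was not tested.

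The receptor genes differed in pattern: Lifr and Il6ra were low in both thapsigargin groups, and Osmr was low with thapsigargin alone. Lifr, the gene of the LIF receptor, had the largest fall of the set. It read 6.76, 7.08 and 6.94 under thapsigargin plus forskolin, 6.76, 6.90 and 6.89 under thapsigargin, and 8.28, 8.49 and 8.54 under DMSO. The DMSO arrays lay above all 6 others, and the 2 thapsigargin groups overlapped. Lifr fell by 1.59 ± 0.10 with thapsigargin relative to DMSO (limma adjusted p = 1.19e-06) and by 1.51 ± 0.10 with the combination relative to DMSO (limma adjusted p = 1.9e-06). Forskolin added to thapsigargin gave a difference of 0.07, with a 95% interval from -0.15 to 0.29 (limma adjusted p = 0.773).

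Il6ra, which encodes the receptor that binds IL-6 itself, behaved likewise but moved less. Its values were 6.92, 6.92 and 6.75 under thapsigargin plus forskolin, 6.72, 7.01 and 6.90 under thapsigargin, and 7.52, 7.56 and 7.30 under DMSO. All arrays of both thapsigargin groups were below DMSO. Il6ra fell by 0.58 ± 0.10 with thapsigargin relative to DMSO (limma adjusted p = 0.000965) and by 0.59 ± 0.10 with the combination relative to DMSO (limma adjusted p = 0.0009), and the combined group differed from thapsigargin by -0.01, with a 95% interval from -0.23 to 0.20 (limma adjusted p = 0.968). The group with the highest Il6 values thus showed no called rise in the transcript of its receptor.

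Osmr, whose product pairs with gp130 to bind oncostatin M, was the receptor gene that forskolin raised. It read 10.96, 10.96 and 10.98 under thapsigargin plus forskolin, 10.63, 10.59 and 10.65 under thapsigargin, and 10.86, 10.92 and 10.95 under DMSO. The thapsigargin arrays were the lowest, and the combined arrays stood just above the highest DMSO array. Osmr fell by 0.29 ± 0.05 with thapsigargin relative to DMSO (limma adjusted p = 0.00108) and was 1.27-fold higher with forskolin added than with thapsigargin (limma adjusted p = 0.00261). The combined group differed from DMSO by 0.05, with a 95% interval from -0.06 to 0.16 (limma adjusted p = 0.453).

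Il6st, the gene of the shared receptor gp130, hardly moved. It read 12.15, 12.07 and 12.11 under thapsigargin plus forskolin, 12.21, 12.20 and 12.28 under thapsigargin, and 12.26, 12.31 and 12.25 under DMSO. The combined arrays lay lowest by a small margin, and thapsigargin and DMSO overlapped. Relative to DMSO the combination lowered Il6st by 0.16 ± 0.05 (limma adjusted p = 0.0342), a call that was lost under 7 of 17 alternative settings, where adjusted p reached 0.115. Thapsigargin against DMSO gave -0.04 (limma adjusted p = 0.576), and forskolin added to thapsigargin gave -0.12 (limma adjusted p = 0.244), which passed with an intensity trend and robust prior (limma adjusted p = 0.0269).

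Stat3 and Socs3, downstream of the receptors, both fell with thapsigargin and were higher again with forskolin, Stat3 up to the DMSO range and Socs3 only in part. Stat3 read 11.09, 11.14 and 11.09 under thapsigargin plus forskolin, 10.62, 10.64 and 10.65 under thapsigargin, and 11.10, 11.18 and 11.20 under DMSO. The thapsigargin arrays lay below every other array, and the combined and DMSO arrays overlapped. Stat3 fell by 0.52 ± 0.05 with thapsigargin relative to DMSO (limma adjusted p = 2.28e-05) and was 1.38-fold higher with forskolin added than with thapsigargin (limma adjusted p = 0.000502). The combined group differed from DMSO by -0.06, with a 95% interval from -0.17 to 0.06 (limma adjusted p = 0.428).

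Socs3, the gene whose window holds the STAT palindrome printed above, read 7.67, 7.67 and 7.56 under thapsigargin plus forskolin, 7.40, 7.23 and 7.20 under thapsigargin, and 8.52, 8.40 and 8.59 under DMSO. The 3 groups did not overlap, with DMSO highest and thapsigargin lowest. Socs3 fell by 1.23 ± 0.08 with thapsigargin relative to DMSO (limma adjusted p = 1.19e-06) and by 0.87 ± 0.08 with the combination relative to DMSO (limma adjusted p = 1.38e-05). With forskolin added to thapsigargin it was 1.28-fold higher (limma adjusted p = 0.0186). That last call was lost when thapsigargin replicate 2, thapsigargin replicate 3, combined replicate 1 or combined replicate 2 was left out, with adjusted p between 0.0667 and 0.0773, while the log2 change stayed between 0.32 and 0.42 over all 9 single omissions. Combined replicates 1 and 2 held the same value to 4 decimals, which lowers the spread. A second Socs3 probe set, not used for the tests, read 5.26, 5.25 and 5.30 under thapsigargin plus forskolin, 5.11, 4.83 and 4.95 under thapsigargin, and 5.36, 5.71 and 5.48 under DMSO, in the same order of groups.

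**Figure D2:**
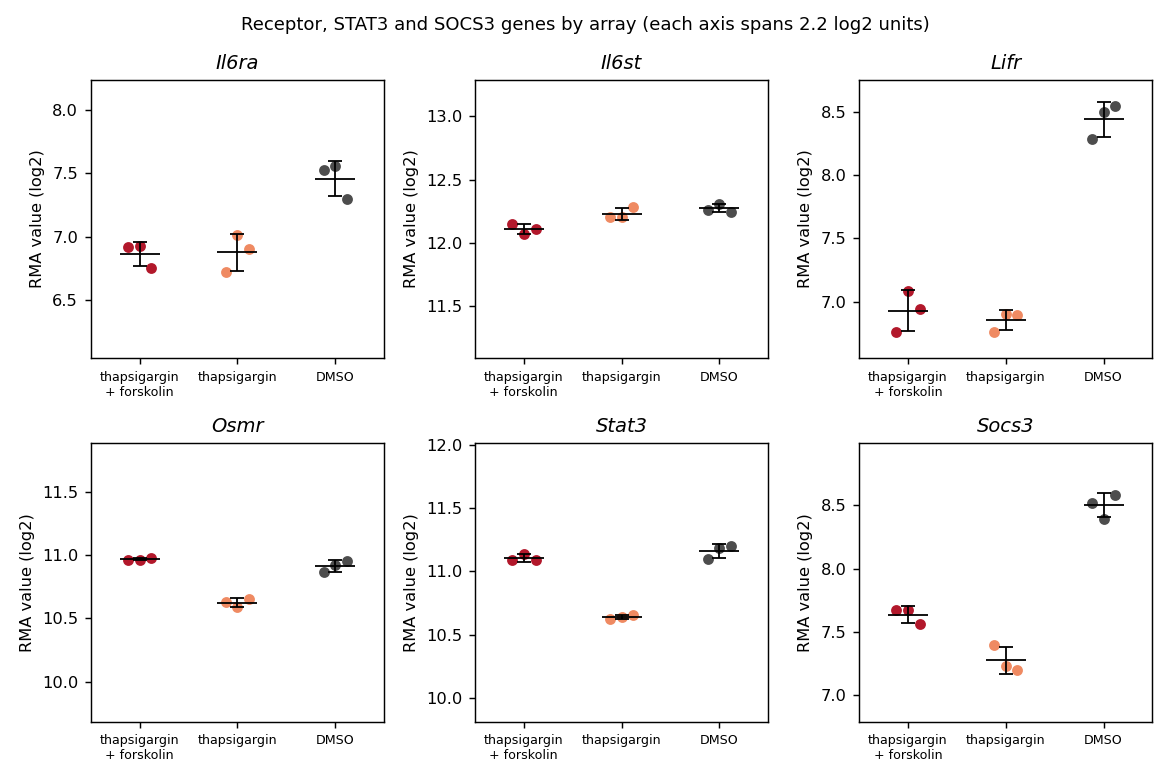
Deposited log2 values of the 4 receptor genes, Stat3 and Socs3 on each array, with 3 points per group and bars for the mean and SD; each axis spans the same number of log2 units. Lifr and Il6ra are low in both thapsigargin groups, Osmr and Stat3 are low with thapsigargin alone, Socs3 lies between in the combined group, and Il6st is nearly level.

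Counted over the 9 tested genes, thapsigargin against DMSO lowered 7 and raised 0, where 16.9% of all genes were lowered and 18.2% raised, 35% in all. Il11 and Il6st did not pass. The median log2 change of the 9 genes was -0.52, against -0.04 over all genes. Forskolin added to thapsigargin raised 5, Il11, Clcf1, Osmr, Stat3 and Socs3, and lowered 0, where 3.7% of all genes were raised, 4.17% lowered and 7.87% called. The median of the 9 was 0.34, against -0.01 over all genes. These comparisons share the thapsigargin arrays, so their opposite signs are not independent. In the combination against DMSO the thapsigargin arrays do not enter the log2 differences, but they enter the shared estimate of the spread. That comparison raised Il11 and lowered Lif, Il6ra, Il6st, Lifr and Socs3, with 17.9% of all genes raised, 16.7% lowered and 34.5% called. There the median of the 9 was -0.16, against -0.04 over all genes. The members were chosen with earlier results of these data known, so these counts describe the set and do not test it.

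**Figure D3:**
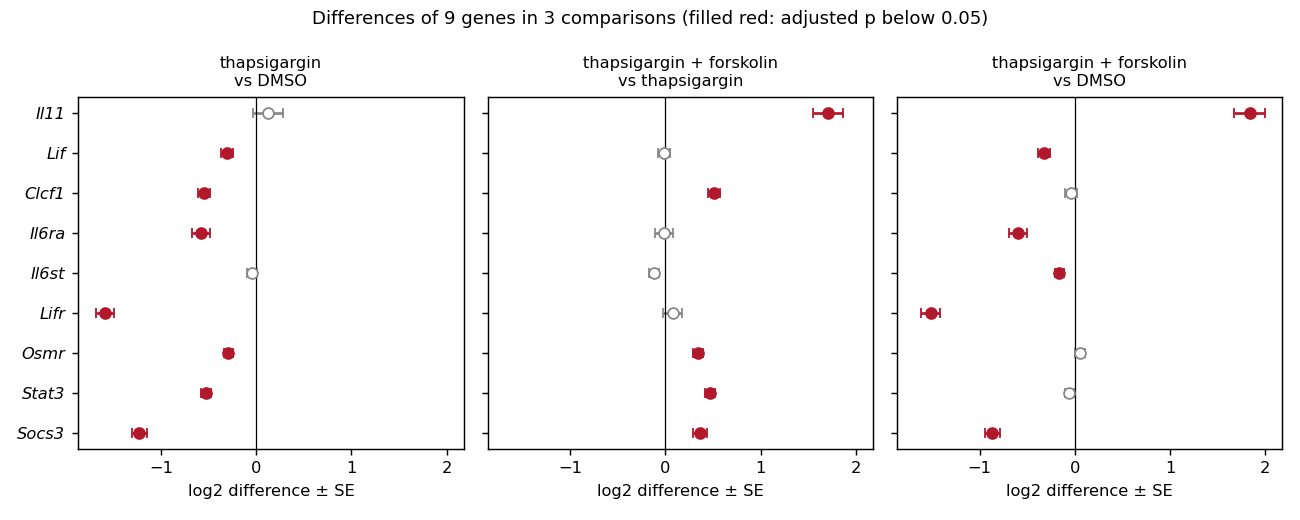
Log2 differences with their limma standard errors for the 9 tested genes in the 3 comparisons, filled where the adjusted p was below 0.05. With thapsigargin against DMSO 7 filled points lie below 0, with forskolin added to thapsigargin 5 filled points lie above it, and Il11 at 1.71 is farthest out in that panel.

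The rest of the pathway was followed through a list of 43 genes, of which 37 were measured and the others were not analysed here. Thapsigargin against DMSO raised 8 and lowered 11 of the 37, beside 18.2% and 16.9% of all genes. Forskolin added to thapsigargin raised 1 and lowered 0, beside 3.7% and 4.17% of all genes. The combination against DMSO raised 7 and lowered 9, beside 17.9% and 16.7%. The medians were -0.08, -0.01 and -0.06 in these comparisons, close to those of all genes.

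That 1 gene was Cish, a member of the SOCS family best known as a target and inhibitor of STAT5. It read 8.12, 8.24 and 8.17 under thapsigargin plus forskolin, 7.26, 7.03 and 7.16 under thapsigargin, and 8.98, 8.94 and 8.93 under DMSO, so the groups did not overlap and stood in the same order as for Socs3. Cish fell by 1.80 ± 0.07 with thapsigargin relative to DMSO (limma adjusted p = 5.33e-08) and was 2.03-fold higher with forskolin added than with thapsigargin (limma adjusted p = 2.12e-05). Relative to DMSO the combination lowered it by 0.77 ± 0.07. Jak2, the gene of a gp130-bound kinase, stood above DMSO with thapsigargin, by 0.32 (limma adjusted p = 0.00114). With the combination it stood 0.53 above DMSO (limma adjusted p = 4.39e-05). With forskolin added to thapsigargin it stood just outside the threshold, at 0.21 (limma adjusted p = 0.0505). That difference passed in 6 of the 17 alternative settings, with adjusted p as low as 0.0081. Jak2 was singled out after its values were seen.

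Socs3 fell with thapsigargin, and the other inhibitors were mixed. Of 15 measured inhibitors and phosphatases 6 rose and 4 fell against DMSO with thapsigargin, beside 18.2% and 16.9% of all genes. Socs2, a feedback inhibitor of growth hormone signalling, averaged 9.89 with thapsigargin and 9.06 with DMSO, a rise of 1.78-fold. Ptpn2, which encodes a phosphatase that removes phosphate from JAKs and STATs, averaged 9.15 and 8.16 in these groups, a rise of 1.99-fold. With the combination both were also above DMSO, at 1.93-fold for Socs2 and 1.86-fold for Ptpn2. Gab1, which encodes a docking adaptor that couples gp130 to the ERK and PI3K pathways, fell by 0.85 ± 0.05 with thapsigargin and by 0.77 ± 0.05 with the combination, both relative to DMSO.

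Of the 5 measured relatives of Stat3, 4 fell with thapsigargin, where 16.9% of all genes fell. With forskolin added 0 of the 5 passed, where 7.87% of all genes did. They were chosen for a closer look after their values were seen. Stat5a read 7.52, 7.39 and 7.31 under thapsigargin plus forskolin, 7.52, 7.28 and 7.48 under thapsigargin, and 8.22, 8.16 and 8.05 under DMSO. Stat5b averaged 7.97, 8.13 and 8.62 in the same order of groups, Stat6 averaged 9.51, 9.63 and 10.17, and Stat2 averaged 8.93, 8.85 and 9.13. Against DMSO these 4 were also lower with the combination. The difference between Stat3 and its relatives was not tested. Jak1 did not pass in any comparison, at averages of 11.10, 11.07 and 11.06. Among the other ligands only Ebi3, which encodes a subunit of IL-27 and IL-35, passed. It was higher than with DMSO both with thapsigargin and with the combination. Its averages were 6.06 under thapsigargin plus forskolin, 6.13 under thapsigargin and 5.45 under DMSO, the last under the array medians.

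A list of 30 genes known as targets of STAT3 in one cell type or another was fixed as well, and all 30 were measured. Thapsigargin against DMSO raised 7 and lowered 11, where 35% of all genes were called. Forskolin added to thapsigargin raised 5 and lowered 5, where 7.87% were called, and the combination against DMSO raised 9 and lowered 12, where 34.5% were called. The medians were -0.10, 0.02 and -0.16. With forskolin added, 4 rather than 5 targets were called lower in 5 of the 9 single omissions of an array. Many of these genes are also known to be controlled by other factors.

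With forskolin added to thapsigargin, Cebpd, which encodes an acute-phase transcription factor, rose most among the targets. It read 7.78, 7.89 and 7.87 under thapsigargin plus forskolin, 6.33, 6.31 and 6.29 under thapsigargin, and 7.23, 7.22 and 7.28 under DMSO, without overlap. That was 2.9-fold over thapsigargin (limma adjusted p = 6.24e-07) and 0.60 ± 0.05 above DMSO. Lbp, the gene of the acute-phase protein that binds lipopolysaccharide, rose 1.85-fold over thapsigargin but remained far below DMSO, at averages of 7.46 in the combined group, 6.57 with thapsigargin and 10.69 with DMSO. The other targets raised were Lcn2, Pim1 and Bcl6, at 0.61, 0.38 and 0.38. With the mean of all probe sets of a gene, 4 rather than 5 targets were called higher. Among genes above the median level 6 were. Of the 5, only Pim1 had more than 1 probe set. Lcn2, the gene of lipocalin-2, a marker of tubular injury, already stood 3.78-fold above DMSO with thapsigargin and stood 5.77-fold above it with the combination.

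Other targets fell with forskolin. Gadd45g, a growth arrest gene, fell by 1.08 ± 0.06 and the cyclin D1 gene Ccnd1 fell by 0.78 ± 0.06 relative to thapsigargin, and Timp1, Tnfaip3 and Myc fell by 0.62, 0.61 and 0.41. Myc nevertheless stood above DMSO in both groups, 4.08-fold with the combination and 5.41-fold with thapsigargin. Its combined arrays all held the same value, 11.2248, which lowers the spread. Its fall relative to thapsigargin had a limma adjusted p of 0.0179. Fos, an immediate early gene, fell by 2.37 ± 0.06 with the combination and fell by 2.51 ± 0.06 with thapsigargin, both relative to DMSO. With forskolin added to thapsigargin Fos did not fall, at a difference of 0.14 that did not pass (limma adjusted p = 0.272).

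**Figure D4:**
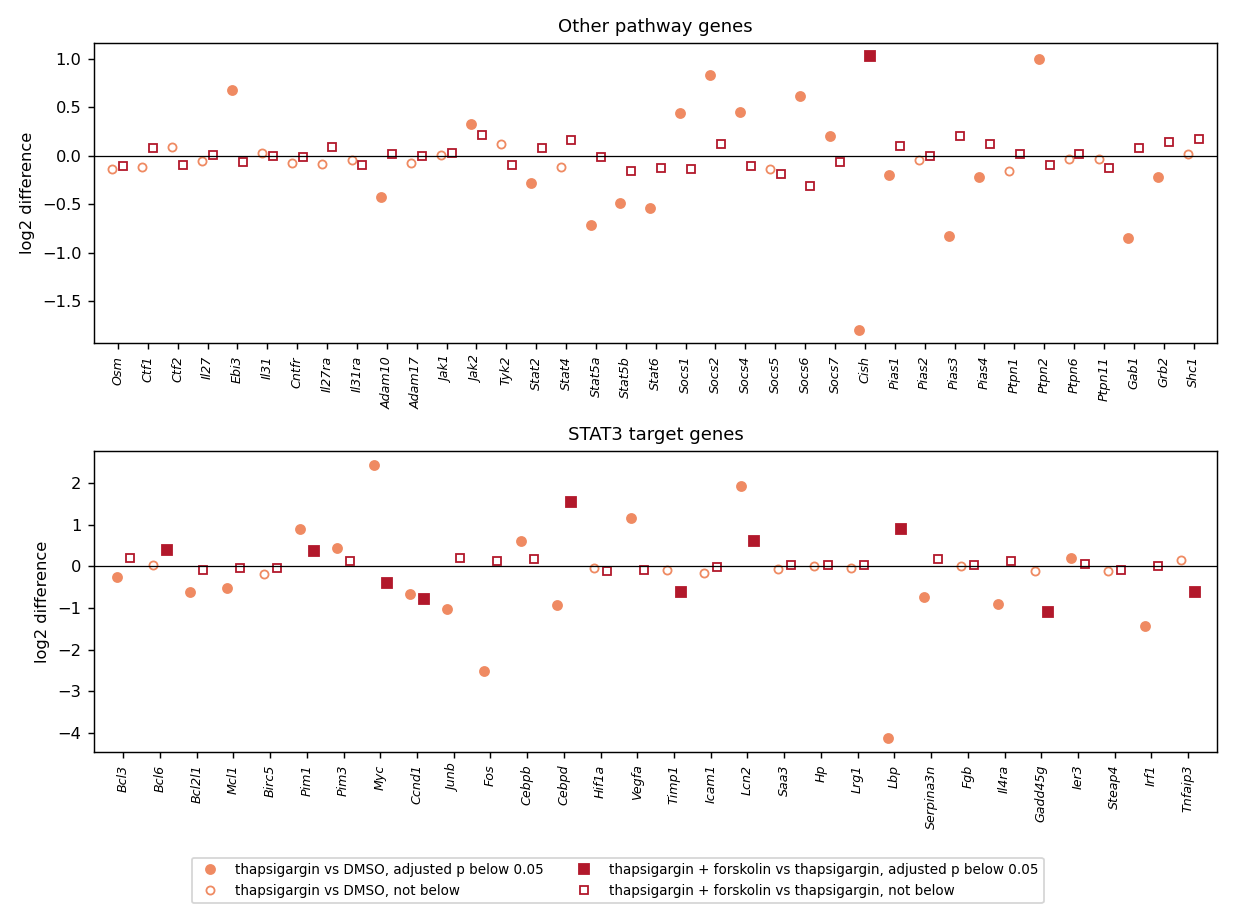
Log2 differences of the 37 measured other pathway genes (top) and the 30 STAT3 target genes (bottom) for thapsigargin against DMSO (circles) and for thapsigargin plus forskolin against thapsigargin (squares), filled where the adjusted p was below 0.05. In the top panel only the square of Cish, at 1.02, is filled, and in the bottom panel 5 filled squares lie above 0 and 5 below.

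Genes whose pattern over the 9 arrays was most like that of Il6 were sought among 12604 genes with a group mean above 5.84, the median of all values. The 5 with the highest Pearson correlation were Tnfrsf21 (0.996), Vgf (0.995), Nr4a3 (0.993), Kif13b (0.993) and Dusp10 (0.992). The arrays share the 3 groups, so the correlation mainly follows the group means and is given as a description. Nr4a3, which encodes an orphan nuclear receptor, averaged 9.20 under thapsigargin plus forskolin, 6.13 under thapsigargin and 5.14 under DMSO. Vgf, the gene of a neuropeptide precursor, averaged 9.48, 7.56 and 7.05 in the same order, and Tnfrsf21, which encodes death receptor 6, averaged 9.68, 8.83 and 8.59. Dusp10, the gene of a phosphatase of MAP kinases, averaged 9.88, 8.88 and 8.54, and the kinesin gene Kif13b averaged 9.49, 8.72 and 8.61. Their group order follows from how they were chosen.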

How the data were processed

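The authors deposited log2 values, which the submitters' processing notes credit to affy and RMA; no version is stated there. RMA makes the arrays' distributions alike, so changes in total RNA per cell cannot be seen. Background was not checked, because scanner files were not used here. The table held 41345 probe sets, of which 23521 had 1 gene symbol, 1814 several and 16010 none; only the first were used, giving 22180 genes. Symbols were checked by Entrez ID, with 0 changed.

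Group means of all 9 arrays entered 1 limma fit (limma 3.58.1, R 4.3.3, 6 residual degrees of freedom, no covariate), with two-sided eBayes contrasts and Benjamini-Hochberg adjustment over all genes. Genes were called at adjusted p below 0.05. The fit was tested on simulated data with known changes. Precision is limited by having 3 arrays per group.

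The members and lists were chosen with earlier results of these data known. Beside the members, the rule for named genes took up to 4 called genes with the largest change per wider list and comparison, above the median of all values, and the 5 genes most like Il6; others were named after their values were seen, among them Ebi3, Jak1, Jak2, the Stat genes and the smaller called target changes. Alternatives were a fit of the 6 arrays compared, an intensity trend with robust prior, array weights, 2 other scalings, a filter on dim genes, the mean of probe sets, single arrays left out, and a block for the replicate number.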

Additional observations from a re-analysis of the deposited data

How the results depend on the processing

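Over 17 alternatives, 7 members fell with thapsigargin against DMSO in each, and the count of members called was 4 to 6 with forskolin added to thapsigargin and 5 or 6 with the combination against DMSO. Of 9 counts, 8 stayed within 1.5 times everywhere. The exception was the other pathway genes with forskolin added, where 1 gene was called in the fit reported: 3 were called with an intensity trend and robust prior, with array weights and among genes above the median level, 2 after a second quantile normalization, and 1 to 2 when single arrays were left out. The tested gene-level log2 changes kept direction and side of the threshold in 795 of 816 values. The sign changed only for differences that had not passed: with array weights, Il6ra became 0.0101 with forskolin added and Clcf1 0.0032 for the combination against DMSO. With single arrays left out, the ranges were -0.0347 to 0.3107 for Il11 with thapsigargin against DMSO, -0.0409 to 0.0235 for Lif, -0.0909 to 0.0529 for Il6ra and -0.0035 to 0.1573 for Lifr with forskolin added, and -0.0822 to 0.0156 for Clcf1 in the combination against DMSO; the cause was not tested. The filter on dim genes removed Il6. Whether the replicate numbers pair the arrays cannot be told from 3 arrays per group. Deviations of same-numbered arrays correlated between -0.07 and 0.25, with a median of 0.04. Those of other pairs correlated between -0.30 and 0.25, with a median of -0.02. With the replicate block, 7, 5 and 5 members were called in the 3 comparisons, Il6st being lost against DMSO with the combination (adjusted p = 0.0571, over all alternatives 0.001 to 0.115). Array number and unchecked background limit all values near the lower quartiles.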
